A study of Olea europaea with 36 samples.

Results

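Short Vegetative Phase (SVP) was followed through Contig_35467, 1 of the 37449 olive contigs on the array and the contig whose putative Arabidopsis ortholog is SVP. It was taken by its row in the deposited table, and its level is given on all 36 arrays, 3 in each of 12 groups. The study had picked this contig from the comparison of the varieties Chiquitita and Arbosana with the Chiquitita-like seedlings, so the differences among those groups are given here as a description, with no test. The levels over all groups were also known when the gene was chosen, so the p-values given for SVP below make no allowance for that choice.

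The expression data came from shoot tips of olive (Olea europaea) trees grown in the field in Cordoba. The paper gives the end of Spring as the harvest time of actively growing shoots. The varieties were Picual, a vigorous tree with a spread canopy, Arbequina, Arbosana and Chiquitita, a compact and weeping shrub bred from Picual (mother) and Arbequina (pollen donor). All groups were active shoot tips apart from a set of dormant Picual meristems, for which the paper gives no harvest time. Seedlings of the Picual × Arbequina cross had been pooled by short (SILe) or long (LILe) internodes and by small (SmaD) or large (LarD) trunk diameter, and seedlings of the Chiquitita × Arbosana cross by a Chiquitita-like canopy (ChiCa) and by simple or complex branching. A pool mixes tissue of several seedlings, so the level of a single seedling cannot be read from it. The paper also measured this contig by quantitative RT-PCR in the single seedlings of ChiCa. It reports levels closer to Chiquitita than to Arbosana in most of them. For the set of genes that holds this contig, it adds that seedlings did not always differ significantly from Arbosana. Shoots were harvested separately for each of the 3 arrays of a group, which need not mean separate trees, and p-values measure only the spread between these samples. SmaD replicates 2 and 3 carry short internodes in their feature label and small diameter in their title, and were used as SmaD. SILe replicate 3 stood apart from its group: over all contigs its log2 intensities correlated with the other SILe arrays at 0.839 and 0.842, against 0.947 to 0.992 for the other 34 pairs of replicates, so the main values that rest on it are also given without it.

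SVP is a MADS-box transcription factor. In Arabidopsis it binds and represses genes that start flowering, and it lowers gibberellin synthesis at the shoot apex, so that plants without it flower early. Related genes of woody plants, known as DAM genes in peach, are associated with bud dormancy. These roles are background from other species and are not results of these arrays.

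The olive sequences that identify the contig are those of the primer pair designed on it for quantitative RT-PCR. They are shown because no other olive sequence of the contig was used here and its RefSeq entry was not identified. Both are given 5′ to 3′ in lower case, with 13 G or C bases among the 25 of the forward primer and 14 among the 24 of the reverse primer.
Forward primer: tgccagctccagcatgaaggacata
Reverse primer: actgtcctcgactagctgcttcgg

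SVP separated 2 varieties from everything else. Arbequina had by far the lowest level, Arbosana was intermediate, and all 30 arrays of the other 10 groups lay in a common band from an intensity of 1315 to 4375, or to 3452 without SILe replicate 3. The 3 Arbequina arrays had intensities of 58.1, 88.3 and 37.4. The 3 Arbosana arrays had 631, 423 and 199. No array of these varieties overlapped with another group, as was the case for 33.3% of contigs between Arbosana and Arbequina and for 29.2% between Picual and Arbosana. The lowest Arbosana array was 2.26 times the highest Arbequina array, and the lowest array of the 10 higher groups was 2.09 times the highest Arbosana array. These are values of RNA from whole shoot tips, in which fewer cells that express a gene and less RNA per cell cannot be told apart.

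On the log2 scale, the group mean was 5.85 ± 0.62 (SD, n = 3 arrays) in Arbequina and 8.55 ± 0.84 in Arbosana. The other group means ran from 10.82 ± 0.42 in Picual to 11.48 ± 0.38 in ChiCa. All 3 Arbequina arrays lay under the lower quartile of their array, with 12.6% to 22.5% of contigs at or below that intensity. In Arbosana this position was 33.2% to 45.9%, and in the other groups 61.0% to 84.0%, or to 79.8% without SILe replicate 3. Such positions describe how dim a signal was on its array and not the amount of transcript relative to other genes. Signal over background and the match of the array probe to the sequence of each variety were not examined here. The size of differences against the dim Arbequina arrays is therefore uncertain.

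**Figure D1:**
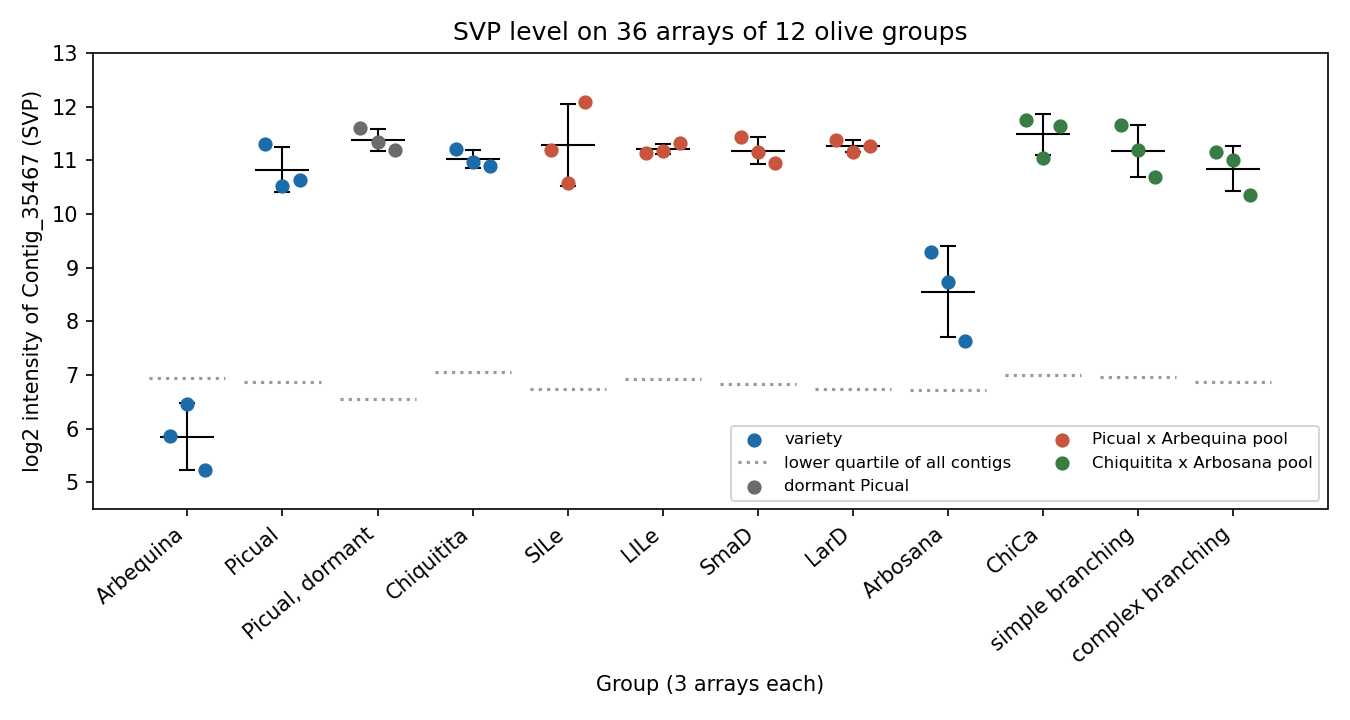
Level of Contig_35467 (SVP) as log2 intensity on each of 36 arrays (points, 3 per group), with the group mean and its SD (black bars) and the mean lower quartile of all contigs on the arrays of the group (dotted lines). Arbequina, at a mean of 5.85, lies under the dotted line and Arbosana, at 8.55, between it and the other 10 groups, which lie between 10.82 and 11.48.

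Active Picual and Arbequina are the parents of the main cross, and SVP differed between them more than nearly every other contig. The 3 Picual arrays had intensities of 2538, 1477 and 1592, all above the Arbequina arrays. SVP was 31.4-fold higher in Picual, a log2 difference of 4.97 (standard error 0.371, 95% interval 4.21 to 5.73, adjusted p = 2.25e-10 from limma). These levels were known when the gene was chosen, so this p-value is not an independent test. Of all contigs, 5.54% were called in this comparison (2.43% higher in Picual), and 30.3% had arrays that did not overlap between the varieties. Calls needed a difference of 2-fold or more and a p-value under 0.05 after Benjamini-Hochberg adjustment over the 37449 contigs. Only 13 contigs exceeded SVP in the direction of Picual and 39 in either direction, and the median size of the difference over all contigs was 0.36 on the log2 scale. With every intensity under the lower quartile of its array raised to that quartile, an alternative chosen after seeing the data, the log2 difference was 3.89 (adjusted p = 8.74e-09 from limma).

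**Figure D2:**
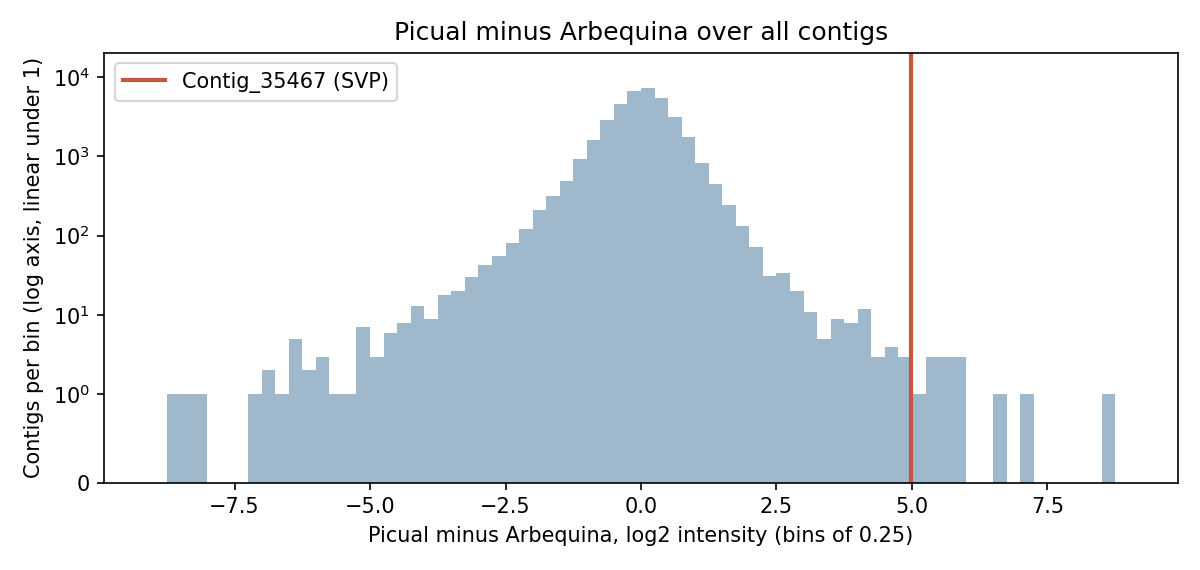
Number of contigs (vertical axis, logarithmic above 1) by their difference in log2 intensity between Picual and Arbequina (horizontal axis, positive where Picual is higher). The line marks SVP at 4.97, with 13 contigs farther to the right.

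In Chiquitita and the seedling pools of the Picual × Arbequina cross, SVP lay on the side of Picual. The Chiquitita arrays had 2384, 2011 and 1911, all inside the range of the Picual arrays. Its mean intensity was 2102 ± 249 (SD, n = 3 arrays) against 1869 ± 582 in Picual and 61.3 ± 25.6 in Arbequina. Chiquitita minus Picual was 0.21 on the log2 scale (standard error 0.371, 95% interval -0.55 to 0.97), and Chiquitita minus Arbequina was 5.18. Neither was tested, since the Chiquitita arrays served to choose the contig.

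The pools of this cross lay in or above the range of Picual. The LILe arrays had 2252, 2317 and 2558, and the LarD arrays 2659, 2267 and 2456. These were the groups with the smallest spread, with SDs of 0.10 and 0.12 on the log2 scale. The SmaD arrays had 2778, 2289.6 and 1968, and the SILe arrays 2332, 1525 and 4375. The last value, from SILe replicate 3, was the highest of the 36 arrays, and gave SILe an SD of 0.76; without it the SILe mean was 10.88 in place of 11.29. Of the 12 pool arrays, 8 lay inside the range of the Picual arrays and the other 4 above it, 1 in each pool.

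The middle of the parents lay below every pool. On the log2 scale the pools together exceeded the mid-parent of Picual and Arbequina by 2.90 (standard error 0.227, 95% interval 2.43 to 3.36, adjusted p = 2.50e-09 from limma), a comparison in which 2.79% of contigs were called and 1.11% were called higher in the pools. Without SILe replicate 3 the difference was 2.80 (adjusted p = 1.51e-09 from limma). On the log2 scale 10 contigs exceeded SVP in the same direction. The difference rests on the same dim Arbequina arrays as that between the parents, so it is not a separate result. Its p-value likewise makes no allowance for the choice of the gene. The size depends on the scale: the mid-parent is an intensity of 324 on the log2 scale but 965 as a mean of linear intensities, and on the linear scale, chosen after seeing the data, the mean of the pools (2481) was 2.57 times the mid-parent, or 1.36 as log2. All 12 pool arrays exceeded the linear mid-parent, the lowest of them at 1525. A pool at the linear mid-parent of 965 would already lie above the log2 mid-parent of 324. The p-value of the log2 difference is therefore no test of a departure from the linear middle. No fit was made on linear values.

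No difference between the paired pools was larger than the spread of their arrays. SILe minus LILe was 0.07 on the log2 scale (standard error 0.371, 95% interval -0.69 to 0.83, adjusted p = 0.976 from limma), in a comparison where 0.0694% of contigs were called. SmaD minus LarD was -0.08 (standard error 0.371, 95% interval -0.84 to 0.68, adjusted p = 0.959 from limma), where 0.0561% were called. The standard error is shared by all 12 groups and is not the spread of the pools compared. On the arrays of the compared pools alone it was 0.42 for SILe minus LILe and 0.20 for SmaD minus LarD. Either interval of the shared fit leaves room for differences of more than 1.5-fold, and both signs turned when single arrays were left out. Leaving out SILe replicate 3 gave -0.33 for SILe minus LILe. Leaving out SmaD replicate 3 gave 0.039 for SmaD minus LarD.

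The Chiquitita × Arbosana cross also has a parent with a high and a parent with a low SVP level. The study chose the contig in this family, so its values are a description. Chiquitita exceeded Arbosana by 2.48 on the log2 scale (standard error 0.371), or 5.56-fold, without overlap of their arrays, as for 28% of contigs. The ChiCa arrays had 3452, 2117 and 3202, and ChiCa exceeded Arbosana by 2.93 (standard error 0.371), again without overlap, as for 32.9% of contigs. ChiCa had the highest group mean of all, 1.37-fold over Chiquitita, with a log2 difference of 0.45 (95% interval -0.31 to 1.21).

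The branching pools of the same cross also lay far above Arbosana. The simple branching arrays had 3229, 2332 and 1653, and the complex branching arrays 2275, 2066 and 1315. Simple minus Chiquitita was 0.15 and complex minus Chiquitita -0.19 on the log2 scale, each with a standard error of 0.371. All 9 arrays of the 3 pools exceeded the linear mid-parent of Chiquitita and Arbosana (1259.7). Between the branching pools, which the study did not use to pick the contig, SVP differed by -0.34 (complex minus simple, standard error 0.371, 95% interval -1.10 to 0.42, adjusted p = 1.00 from limma). Their arrays overlapped, and 0.0935% of contigs were called.

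Between dormant and active Picual shoot tips the estimated difference in SVP was under 2-fold, with a wide interval. The dormant arrays had 3108, 2598 and 2354 and overlapped with those of active Picual. The log2 difference was 0.56 (standard error 0.371, 95% interval -0.20 to 1.32, adjusted p = 0.330 from limma), or 1.47-fold, and was not called. This comparison called 14.3% of contigs, and 43% of contigs differed at least as much as SVP. The interval reaches from 0.869-fold to 2.49-fold, so a rise of more than 2-fold is not excluded by it. CDC45, a gene of DNA replication, fell by 1.87 on the log2 scale in dormant Picual (adjusted p = 0.000773 from limma), with 402 to 688 in dormant and 1509 to 2424 in active Picual arrays. Active Arbosana arrays also had low values of 407 to 701, and the lowest SILe array had 352. A low CDC45 level is therefore not particular to the dormant arrays and is no check of their label.

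**Figure D3:**
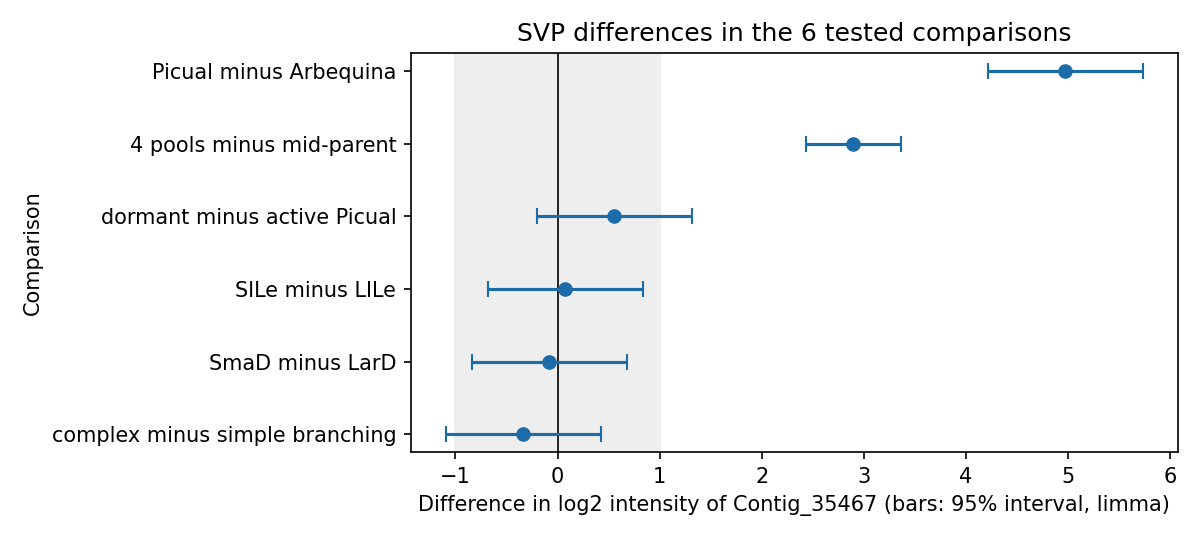
Differences in log2 intensity of SVP in the 6 comparisons that were tested (points), with 95% intervals from limma (bars) and the zone of less than 2-fold in grey. Picual minus Arbequina (4.97) and the 4 Picual × Arbequina pools minus the mid-parent of Picual and Arbequina (2.90) lie to the right of the zone, and the other 4 intervals include 0.

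In the order of levels, the groups above Arbosana formed a near continuous series. From low to high they were Picual, complex branching, Chiquitita, simple branching, SmaD, LILe, LarD, SILe, dormant Picual and ChiCa. Each pair of neighbours in this series differed by 0.00 to 0.19 on the log2 scale, had overlapping arrays and differed by less than the larger SD of the pair. By contrast, the steps from Arbequina to Arbosana (2.70) and from Arbosana to Picual (2.27) exceeded the larger SD of each pair (0.84). Across the 10 higher groups the means spanned 1.58-fold. None of their 45 pairs reached 2-fold, and arrays failed to overlap in 1 pair, complex branching and dormant Picual (0.54 on the log2 scale), as for 33.8% of contigs between these groups.

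Set beside all contigs, SVP was among the most variable between the 12 groups. It was among the less variable between the 10 where it was higher. The SD of its 12 group means was 1.66 on the log2 scale, larger than that of 99.6% of contigs (median 0.37). Over the 10 higher groups alone the SD was 0.21, larger than that of 18.1% of contigs (median 0.35). These 10 groups are those left once the low groups of SVP are set aside, while other contigs kept groups in which they stood out. The low rank of SVP therefore follows in part from the choice of groups and does not show a stable level. The spread within groups was ordinary, at a pooled SD of 0.46 against a median of 0.45 over contigs. It was widest in Arbosana, SILe and Arbequina.

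Contigs with this combination were counted. The combination was shaped on SVP itself, so a small count does not show that SVP is unusual. Arbequina and Arbosana were the 2 lowest groups for 1470 contigs (3.93%). Both were at least 2-fold below every other group, with the other 10 means within 2-fold of each other, for 4 contigs, a count made after the values were seen. These were SVP, Contig_28684, Contig_40807 and Contig_59227. The lowest of the 10 groups exceeded Arbequina 31.4-fold for SVP, 2.47-fold for Contig_28684, 2.89-fold for Contig_40807 and 3.10-fold for Contig_59227. Of the 4, SVP was the contig with Arbosana at least 2-fold over Arbequina.

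The contigs most like SVP were sought by Pearson's r over the 12 group means, among 19159 contigs whose means spanned at least 2-fold and whose mean level was above the lowest 25%. The highest were Contig_30436 (r = 0.942), Contig_27552 (0.936), Contig_24853 (0.936), Contig_29731 (0.927) and Contig_50770 (0.926), and 20 contigs had r above 0.9. The files pair none of them with a gene name. The likeness came from Arbequina and Arbosana: over the other 10 groups r with these 5 contigs ran from -0.31 to 0.25. All groups share their arrays between contigs, so these values are a description.

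The alike contigs differed widely in size. Against the mean of the 10 higher groups, Arbequina was 2.07-fold lower for Contig_30436, where its arrays ran from 521 to 655. For Contig_50770, in contrast, Arbequina ran from 20.6 to 24.6 and Arbosana from 17.5 to 34.9, with every other array at 381 or more. The most opposed contigs were Contig_25003 (r = -0.966), Contig_60506 (-0.958) and Contig_54329 (-0.950). Contig_60506 ran from 588 to 1673 in Arbequina, from 165 to 533 in Arbosana and from 43.2 to 172 in the other groups. The Arbosana mean lay between those of Arbequina and the rest, but its lowest array overlapped with the other groups, unlike for SVP.

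**Figure D4:**
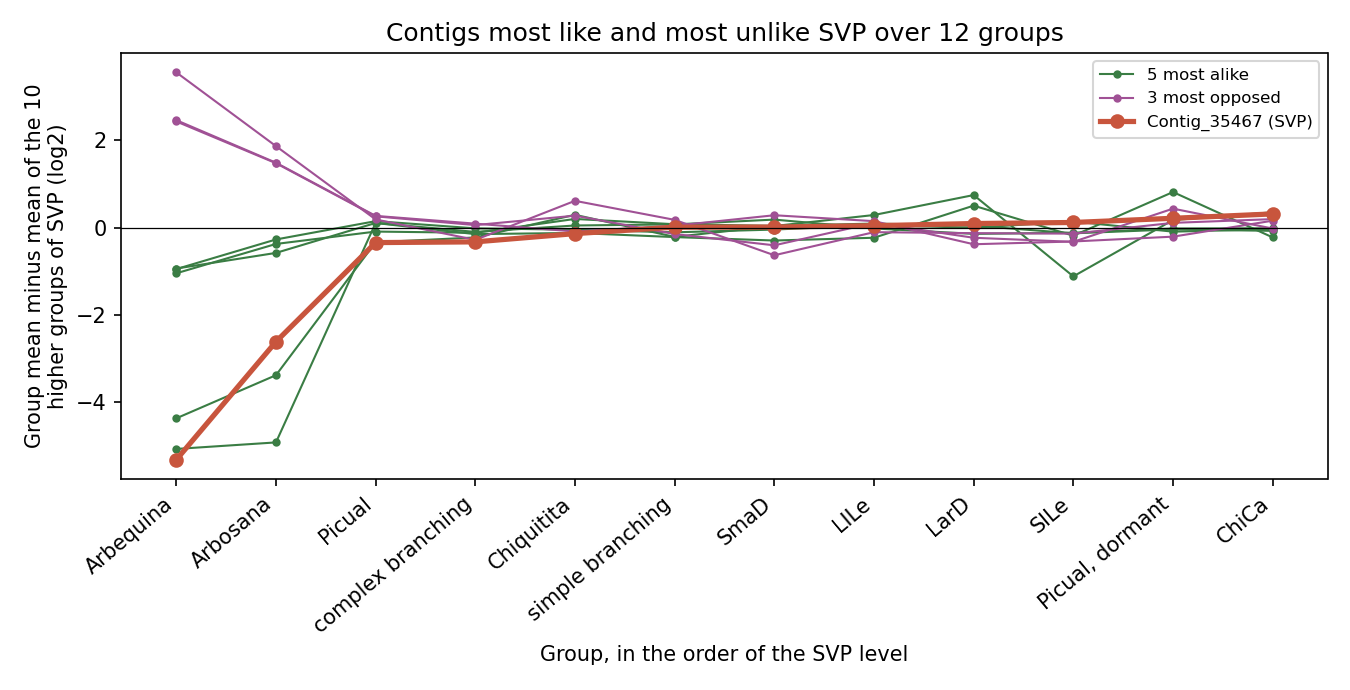
Group means of SVP (thick line), of the 5 most alike contigs and of the 3 most opposed contigs, each as log2 minus its own mean over the 10 groups in which SVP was higher. The groups stand in the order of the SVP level, and the profiles part from the zero line mainly in Arbequina and Arbosana.

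The 10 other contigs that carry a gene name in the sources used here were less alike, with r over the 12 group means from -0.50 to 0.55. The study had selected them on Chiquitita and Arbosana as well, so they are not an independent sample of the pathway. In the list of 4 flowering and gibberellin genes, SPY (a repressor of gibberellin signalling), SAL1 (a phosphatase that also affects flowering), EDL2 (an F-box protein) and SYD (a chromatin remodeller), none was called between Picual and Arbequina. Over all 10, 2 were called higher in Picual, against 2.43% of all contigs called higher and 5.54% called in either direction. These were SCL30 (1.26 on the log2 scale, adjusted p = 0.000516 from limma), a regulator of the GRAS family, which also holds repressors of gibberellin responses, and CDC45 (1.27, adjusted p = 0.0440). The list of 4 leaves out both of these contigs, so its count of 0 depends on where they were placed. The meristem genes CLV1, a receptor kinase, and TPR1, a co-repressor, were not called in any of the 6 comparisons, in which 0.0561% to 14.3% of all contigs were called. CLV1, which is expressed in the shoot meristem of Arabidopsis, was at 2482 or more on all arrays. TPR1 was dim, with group mean intensities from 21.6 in Arbosana to 90.7 in Picual, so its lack of calls does not show a stable level.

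Between dormant and active Picual, 2 of these 10 contigs were called, CDC45 and EDL2, where 14.3% of all contigs were called. EDL2 rose by 1.49 on the log2 scale in dormant Picual (standard error 0.418, adjusted p = 0.0114 from limma), from 241 to 383 in active arrays to 625 to 1179 in dormant ones. SPY, at 118 to 482 in dormant and 116 to 218 in active Picual, was not called. None of the 10 was called between SILe and LILe, between SmaD and LarD, between the branching pools or between the pools and the mid-parent of Picual and Arbequina. Of all contigs, 0.0694%, 0.0561%, 0.0935% and 2.79% were called in these comparisons, so a count of 0 among 10 contigs is near the background.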

How the data were processed

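RNA of active or dormant shoot tips was labelled with Cy3 and hybridised to a NimbleGen array of olive contigs. The authors normalized the arrays with RMA and deposited 1 linear intensity per contig and array; the software version is not given in the sources used here. Another table, whose 36 columns no label pairs with a sample, was not used. Log2 medians of the arrays ran from 9.25 to 9.64, and precision is limited by having 3 arrays a group.

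The log2 intensities of all 36 arrays were fitted in a single model of 12 groups with limma 3.58.1 (lmFit and eBayes, R 4.3.3), with neither a covariate nor a filter. The standard error of SVP is therefore the same for any 2 groups and reflects the spread within all 12. The SDs of SVP within groups ran from 0.10 in LILe to 0.84 in Arbosana. In each of 6 comparisons p-values were adjusted over all contigs. The mid-parent is the mean of both parents' log2 group means. The fit was run on simulated data with the same spread in every group, which is no check for groups of unequal spread such as these. Figures used Python 3.11.15 and matplotlib 3.10.9.

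The gene, the lists and the comparisons were chosen with earlier results of these data known. Besides SVP, the text names 10 further contigs with a gene name in the paper (as Arabidopsis orthologs), and the 5 contigs most like and the 3 most opposed to SVP. The reference table of olive genes matched 0 contig identifiers.

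Replicate numbers were checked as pairs by correlating deviations from the group means. Same-numbered arrays of Picual and Arbequina correlated at 0.218 to 0.287 and count as pairs by this measure, which the labels do not state. In the other pairs of groups at least 1 of 3 correlations was under 0.1. Alternatives were the t-test of the methods, fits on the compared groups only, array weights, a block for the replicate number, a variance trend with robust estimation, median centring, quantile normalization, leaving out the dimmest 25% of contigs, leaving out each replicate, and leaving out SmaD replicates 2 and 3.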

Additional observations from a re-analysis of the deposited data

How the results depend on the processing

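The SVP difference between Picual and Arbequina stayed called in all 17 alternatives, with log2 differences from 3.89 to 5.28 and adjusted p-values up to 0.0404, the value of the methods' t-test after Benjamini-Hochberg adjustment. The pools exceeded the mid-parent in all 30 alternatives, 18 of them without a replicate, from 1.36 (linear means) to 3.05. All but the linear means used the log2 mid-parent, so they do not test a departure from the linear middle. Dormant minus active Picual (0.41 to 0.80) and complex minus simple branching (-0.58 to -0.10) kept their sign and were not called in any alternative. The lowest adjusted p-value for dormant minus active Picual was 0.147 from limma (standard error 0.269). It came from a fit without Arbequina, Arbosana and SILe replicate 3, an alternative chosen after seeing the data. SILe minus LILe turned to -0.33 without SILe replicate 3 and to -0.26 with array weights. SmaD minus LarD turned to 0.18 without SmaD replicates 2 and 3, which leaves a lone SmaD array assumed to vary like the other groups. With each replicate left out in turn, SILe minus LILe ran from -0.33 to 0.43 and SmaD minus LarD from -0.21 to 0.039. The cause was not tested. With the replicate number as a block, Picual minus Arbequina was 4.97 (adjusted p = 2.03e-10 from limma), and the block changed no other call of SVP. Arbequina and Arbosana were the lowest groups under each scaling and without SILe replicate 3. The order within the 10 higher groups kept all ranks with quantile normalization and median centring; 7 groups kept their rank with linear means and 6 without SILe replicate 3. With no minimum on range or level, 2 of the 5 most alike contigs stayed among the 5. The share of all contigs called moved more than the SVP values, for Picual and Arbequina from 5.54% to 15% with array weights and 3.22% with a replicate left out. It moved for dormant and active Picual from 14.3% to 7.15% on their own arrays, and for SmaD and LarD from 0.0561% to 9.79% with array weights and 0.00267% on their own arrays. For SILe and LILe it moved from 0.0694% to 0.00534% on their own arrays and 1.08% with a replicate left out. For the branching pools it moved from 0.0935% to 0.0134% on their own arrays. It was 1.04% there with the methods' t-test, which was called on unadjusted p-values and so at a looser threshold. For the pools and mid-parent it moved from 2.79% to between 1.24% and 5.91%. Signal over background and single trees or seedlings were not examined here.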
